A study of Mus musculus with 6 samples.

Results

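The genes described here are 43 core genes of the mammalian cell division cycle: the cyclins and their kinases, the E2F transcription factors and the pocket proteins that restrain them, the proteins that license and copy DNA, and a set of mitotic genes. They were chosen by name from textbook membership, and 42 of the 43 were measured among the 18194 genes on the array. Ccnb1 had no probe set that the array's annotation gives to it alone, so it has no value. Expression was measured in the first branchial arch, the tissue that forms the jaws, dissected from mouse embryos of day 11.5, with 1 arch per embryo on each of 6 arrays. The embryos came from a cross of Wnt1creEzh2lox/wt with Ezh2lox/lox mice. The 3 embryos labelled control were Ezh2lox/lox, with both Ezh2 alleles flanked by lox sites and no Cre. The 3 embryos labelled mutant were Wnt1Cre Ezh2lox/lox, in which the Wnt1 promoter drives Cre in the neural crest lineage, so that arch cells of other origins (surface ectoderm, endoderm, the muscle core, vessels and blood) should keep Ezh2. Ezh2 is the methyltransferase of Polycomb repressive complex 2, and the comparison asks which genes depend on it in the crest-derived arch.

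Cells enter the division cycle when D-type cyclins with Cdk4 or Cdk6, and then E-type cyclins with Cdk2, phosphorylate the retinoblastoma family of pocket proteins. This frees the E2F factors, which switch on genes for origin licensing, nucleotide supply and DNA synthesis. A later wave of genes, with CHR elements in their promoters and the CCAAT-binding factor NF-Y beside them, carries the cell through G2 and mitosis.

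The promoters of the members were searched for the elements of these waves. RefSeq windows (build GRCm38.p6) of 250 bases before to 50 after the transcription start were held for 35 of the 43 members. An E2F site, searched on both strands as TTTCCCGC, TTTGGCGC, TTTCGCGC or TTTGCCGC, was present in 13 of these 35 members, against 3.81% of the 14453 array genes with such a window and 2.26% of all 32851 windows. A CHR element (TTTGAA or TTCGAA, both strands) was present in 15 members, or 42.9%, against 17.50% of array genes and 19.23% of all windows. The CCAAT box (CCAAT, both strands) was present in 26 members, or 74.3%, against 42.00% of array genes and 37.41% of all windows. By role, 6 of 8 licensing and helicase genes held the E2F site, and 9 of 10 genes of G2 and mitosis held the CHR element, 1 of them (Cdk1) together with the E2F site. The E2F site was found in 0 of 4 genes of synthesis and nucleotide supply, 2 of 6 cyclins and kinases of G1 and S phase, 3 of 5 E2F factors, 1 of 2 pocket proteins and 1 of 10 genes of G2 and mitosis. No motif searched contains another. A match describes letters in a window and does not show that a factor binds there.

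The upstream 250 bases are shown for Mcm7 and Mcm5, the E2F-site members with the highest signal (chr5:138171884-138172133, minus strand, and chr8:75109259-75109508, plus strand), with the E2F matches in capitals. The second sequence holds 2 matches that overlap.
Mcm7: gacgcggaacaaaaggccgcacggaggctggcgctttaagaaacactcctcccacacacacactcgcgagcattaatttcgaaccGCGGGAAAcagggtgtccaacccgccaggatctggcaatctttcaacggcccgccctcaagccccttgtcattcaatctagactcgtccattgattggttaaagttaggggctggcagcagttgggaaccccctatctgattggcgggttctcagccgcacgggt
Mcm5: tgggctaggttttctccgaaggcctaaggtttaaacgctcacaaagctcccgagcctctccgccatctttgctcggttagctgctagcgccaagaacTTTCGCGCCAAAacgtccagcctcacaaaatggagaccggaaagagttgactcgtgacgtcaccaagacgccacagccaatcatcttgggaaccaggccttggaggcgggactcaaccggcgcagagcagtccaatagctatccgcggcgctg

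The same stretch is shown for Cdc6 (chr11:98907901-98908150, plus strand) and E2f3 (chr13:29986064-29986313, minus strand), the members with an E2F match there whose signal differed most between the groups, again with the match in capitals. In E2f3 the match ends 4 bases before the start.
Cdc6: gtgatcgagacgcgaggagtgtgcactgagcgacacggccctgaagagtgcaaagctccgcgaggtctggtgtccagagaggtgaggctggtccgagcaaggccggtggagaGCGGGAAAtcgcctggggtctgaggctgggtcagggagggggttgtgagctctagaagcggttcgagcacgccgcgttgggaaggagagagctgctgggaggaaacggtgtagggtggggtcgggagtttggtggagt
E2f3: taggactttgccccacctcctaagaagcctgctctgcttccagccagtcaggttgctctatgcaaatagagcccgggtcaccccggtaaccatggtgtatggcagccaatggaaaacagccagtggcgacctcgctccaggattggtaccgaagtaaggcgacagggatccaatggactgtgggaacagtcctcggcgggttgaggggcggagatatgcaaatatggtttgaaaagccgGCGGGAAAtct

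For the G2 and mitosis wave, the upstream 250 bases of Top2a (chr11:99024190-99024439, minus strand) and Cdc20 (chr4:118437344-118437593, minus strand) are shown with the CHR matches in capitals. Top2a holds 4 matches and Cdc20 holds 1, which lies close to the start with a CCAAT box on the printed strand on either side of it.
Top2a: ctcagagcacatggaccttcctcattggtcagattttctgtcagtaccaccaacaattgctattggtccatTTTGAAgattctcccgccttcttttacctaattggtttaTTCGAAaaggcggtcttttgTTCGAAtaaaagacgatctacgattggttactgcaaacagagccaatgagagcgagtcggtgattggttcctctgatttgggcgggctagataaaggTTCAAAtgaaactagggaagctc
Cdc20: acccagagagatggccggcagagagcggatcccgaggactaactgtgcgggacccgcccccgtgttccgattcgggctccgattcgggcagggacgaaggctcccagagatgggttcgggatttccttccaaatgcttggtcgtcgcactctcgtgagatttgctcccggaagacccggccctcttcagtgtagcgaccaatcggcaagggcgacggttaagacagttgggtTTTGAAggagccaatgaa

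All values below are log2 signals, and differences are labelled mutant minus labelled control. The labels need care. The 1 probe set of Ezh2 read between 11.52 and 11.80 in the labelled-control and between 11.65 and 11.66 in the labelled-mutant arches, and whether it lies in the deleted part was not determined, so it checks neither label. Hoxa9, a gene that Polycomb normally keeps silent in this arch, read 11.28 ± 0.37 (SD, n = 3) in the labelled-control and 4.21 ± 0.36 (SD, n = 3) in the labelled-mutant arches, while loss of Polycomb repression is known to raise such genes, so the libraries go against their labels here. Xist averaged 5.62 over labelled-control and 13.03 over labelled-mutant arrays, and the Y-linked Kdm5d (9.18 and 2.95), Eif2s3y (9.09 and 3.35) and also Uty (8.18 and 3.23) ran the other way. Sex and label therefore cannot be told apart. The 42 members are all autosomal. Directions below therefore belong to the libraries so labelled. In bulk tissue, fewer cells of a type and less RNA per cell also cannot be told apart.

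Most cell cycle genes differed little between the groups. Only Rbl2, a pocket protein that holds quiescent cells out of the cycle, passed limma's test across all genes, and it fell by 0.63; the other 41 did not pass at a Benjamini-Hochberg adjusted p of 0.05. Of all genes tested 5.53% passed. The median difference of the members was 0.03, with 24 of 42 higher, against a median of 0.02 and 55.3% higher over all genes. At an unadjusted p of 0.05, 11 members passed (8 higher, 3 lower), or 26.2%, against 18.7% of all genes (1554 higher, 1851 lower). The signals of the 2 groups were fully separate for 14 members, 10 of them higher, or 33.3%, against 24.9% of all genes. All 42 members had a mean signal at or above the array median, and of the 11579 genes there 22.3% passed the unadjusted threshold and 29% had separate groups. The unadjusted count was 7 without labelled-mutant array 2 and 7 without labelled-mutant array 3. The adjusted count was 0 without labelled-control array 2 or any 1 of the labelled-mutant arrays, 2 without labelled-control array 3 and 4 without labelled-control array 1. Of all genes, 5.61%, 3.03% and 4.82% passed without labelled-control arrays 1 to 3 in turn. Without labelled-mutant arrays 1 to 3 in turn, 4.49%, 2.64% and 2.39% passed.

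**Figure D1:**
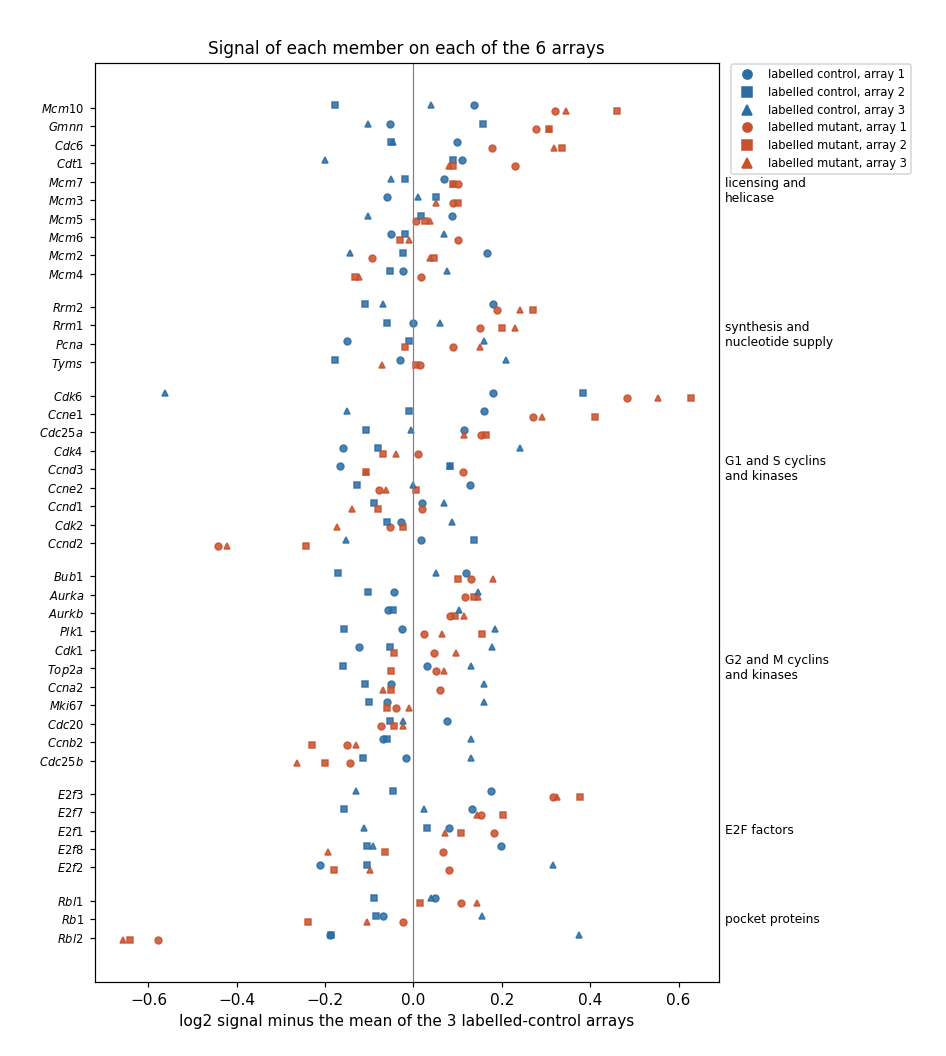
Log2 signal of 42 cell cycle genes on each of the 6 arrays, as the distance from the mean of the 3 labelled-control arrays, grouped by role (rows). Blue points are labelled-control and red points labelled-mutant arrays. For most genes the colours mix. They are fully separate for 14 genes, or 33.3%, against 24.9% of all genes. Mcm7, Mcm10, Cdc6, Gmnn, Rrm1, Rrm2, Cdk6, Ccne1, E2f3 and E2f7 lie to the right in all 3 labelled-mutant arrays. Ccnd2, Ccnb2, Cdc25b and Rbl2 lie to the left in them.

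How large a shift the arrays leave room for was read from each gene's 95% interval (limma's moderated standard error). The interval stayed within a 1.5-fold change either way (0.585 on the log2 scale) for 38 of 42 members, or 90.5%, against 88.9% of all genes. It stayed within a 2-fold change for 41, or 97.6%, against 96.8% of all genes. The median over members of the farther interval bound was 1.24-fold, against 1.25-fold over all genes. The narrowest belonged to Mcm3, a helicase subunit, from -0.08 to 0.24, and the widest to Cdk6, from 0.07 to 1.03, which alone crossed the 2-fold line. Mcm10 (upper bound 0.60), Ccnd2 (lower bound -0.60) and Rbl2 (lower bound -0.96) crossed the 1.5-fold line. Each of these intervals came from 1 probe set per gene. Some further probe sets of members inside the 1.5-fold line reached past it, such as those of E2f3 (1.64-fold), Cdc25a (1.63-fold) and Rrm2 (1.61-fold). With the level raised to 99.88% to cover all 42 intervals at once, 40 still lay within 2-fold, all but Cdk6 and Rbl2, and 29 within 1.5-fold. The authors had brought all arrays to 1 common distribution, so these bounds hold relative to the other genes and not for a shift of the whole transcriptome. They apply to the bulk arch, and a shift within the crest-derived cells alone was not measured.

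**Figure D2:**
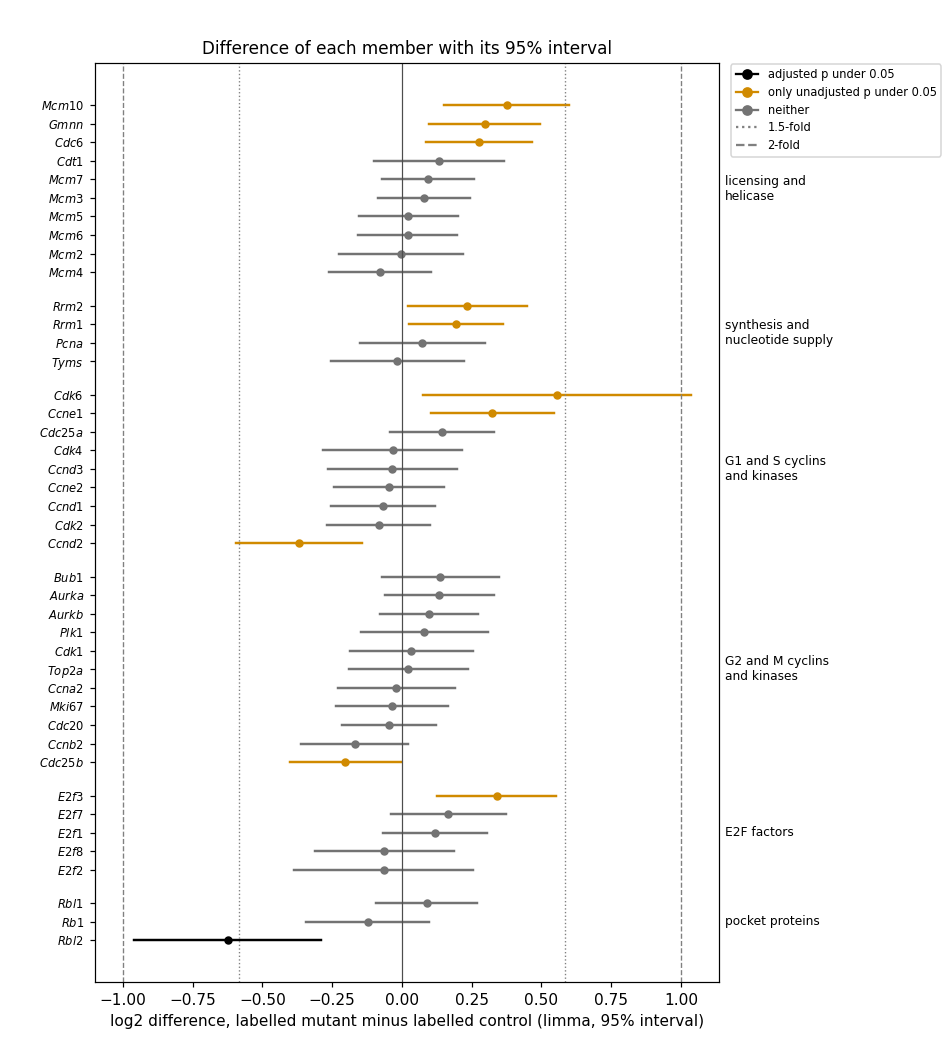
Difference in log2 signal (labelled mutant minus labelled control, points) with its 95% interval (lines) for each of the 42 genes, 3 arrays per group. Dotted lines mark 1.5-fold and dashed lines 2-fold changes: 38 intervals lie inside the dotted lines and all but that of Cdk6 inside the dashed ones.

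The genes that license origins and unwind DNA were read at the probe set with the highest mean signal. There the subunits of the core helicase differed by at most 0.09, and 3 of the 4 factors around it by 0.28 to 0.38, without passing. Mcm7, a subunit of the ring-shaped helicase that opens DNA ahead of the fork, read 13.37, 13.28 and 13.25 on labelled-control arrays 1 to 3 and 13.40, 13.39 and 13.39 on labelled-mutant arrays 1 to 3. Its 2 groups did not overlap, yet they lay only 0.09 ± 0.07 (SE) apart (limma, Benjamini-Hochberg adjusted p = 0.554). Mcm3 read 11.05, 11.16 and 11.12 against 11.20, 11.21 and 11.16, where the highest control and the lowest mutant array met. Mcm2, Mcm4, Mcm5 and Mcm6 differed by between -0.08 and 0.02. At these probe sets, all 6 subunits of the helicase ring had intervals that reached no further than 1.20-fold. Some further probe sets reached further in the fit of all probe sets. Examples are Mcm7 (0.21, reaching 1.34-fold), Mcm4 (-0.21, reaching 1.41-fold) and a dimmer probe set of Mcm3 (0.27, reaching 1.48-fold).

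Mcm10, which helps turn the loaded helicase into a moving fork, read 9.50, 9.18 and 9.40 in the labelled-control and 9.68, 9.82 and 9.71 in the labelled-mutant arches. All 3 labelled-mutant arrays lay above all labelled-control arrays, by 0.38 ± 0.10 (SE) in the mean (adjusted p = 0.0676). Cdc6, which loads the helicase at origins, read 9.98, 9.83 and 9.84 against 10.06, 10.22 and 10.20, a difference of 0.28 ± 0.08 (SE) (adjusted p = 0.109). Gmnn, or geminin, the inhibitor that stops a second loading in the same cycle, read 11.08, 11.29 and 11.03 against 11.41, 11.44 and 11.44, a difference of 0.30 ± 0.09 (SE) (adjusted p = 0.103). None of the 3 passed, though their groups did not overlap. Mcm10 crossed the threshold without labelled-control array 1 (adjusted p = 0.0465) and with limma's trend and robust settings (adjusted p = 0.0452), within a range of 0.0452 to 0.251 over its 14 alternatives. Cdt1, the partner of Cdc6 that geminin binds, differed by 0.13, and its groups overlapped. A further probe set of Cdt1 gave 0.23 with groups that did not overlap (limma fit of all probe sets, adjusted p = 0.199). Its dimmest probe set gave 0.03.

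Both subunits of the enzyme of nucleotide supply read higher in the labelled-mutant arches, without passing. Rrm2, the small subunit of ribonucleotide reductase, which makes the DNA building blocks, read 13.03, 12.74 and 12.78 in the labelled-control and 13.04, 13.12 and 13.09 in the labelled-mutant arches. The groups were split by only 0.01 between labelled-control array 1 and labelled-mutant array 1. Rrm1, the large subunit, read 11.82, 11.76 and 11.88 against 11.97, 12.02 and 12.05. The differences were 0.23 ± 0.09 (SE) and 0.19 ± 0.07 (SE), and neither passed (adjusted p = 0.226 and 0.205). The further probe sets of Rrm1 gave 0.12, with groups that overlapped, and -0.10, under the 25th percentile on all arrays. With probe sets averaged per gene Rrm1 differed by 0.07. Pcna, the sliding clamp of the polymerase, read 13.28, 13.42 and 13.59 against 13.52, 13.41 and 13.58, and the labelled-mutant values lay inside the labelled-control range. Tyms, which makes thymidylate, differed by -0.02 at signals between 6.23 and 6.62. The brightest of its 4 probe sets had a mean of only 6.40, near the array median of 5.81, and the dimmest 3.51. How well these probe sets report the transcript was not tested, which limits what its interval can exclude.

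Among the cyclins and kinases of G1 and S phase the differences went both ways, and none passed. Ccnd2, 1 of the 3 D-type cyclins, read 12.93, 13.05 and 12.76 in the labelled-control and 12.47, 12.67 and 12.49 in the labelled-mutant arches. Every labelled-mutant array lay below every labelled-control array, by 0.37 in the mean (difference -0.37 ± 0.10, SE), without passing (adjusted p = 0.0747). All 7 probe sets of Ccnd2 gave a lower mean signal, with differences between -0.37 and -0.22, but in 5 of the 7 labelled-control array 3 lay within or below the labelled-mutant range. Without labelled-control array 3 the difference was -0.45 and passed (adjusted p = 0.0422), and it also passed with trend and robust settings (adjusted p = 0.0318), within a range of 0.0318 to 0.264 over 14 alternatives. The other D-type cyclins, Ccnd1 and Ccnd3, differed by -0.07 and -0.03, and their groups overlapped. Of the kinases they activate, Cdk4 differed by -0.03 and Cdk6 by 0.55.

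Cdk6 read 9.07, 9.27 and 8.33 on labelled-control arrays 1 to 3 and 9.37, 9.52 and 9.44 on labelled-mutant arrays 1 to 3. The low labelled-control array 3 set both the size and the width of the interval (standard error 0.21, adjusted p = 0.203), and without it the difference was 0.27 (adjusted p = 0.169, range 0.109 to 0.438 over 14 alternatives). A further probe set of Cdk6 did not show that low array: it read 8.85, 8.78 and 8.91 against 9.30, 9.27 and 9.21, a difference of 0.41 ± 0.08 (SE). In a fit of all 34958 probe sets it passed (adjusted p = 0.0316), as 1 of 102 member probe sets, against 2.82% of all probe sets. The gene-level value and this probe set thus differed in their call, and the choice of probe set decided it.

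The 2 E-type cyclins gave differences of 0.32 and -0.05, and the gap between them was not tested. Ccne1, which with Cdk2 drives entry into S phase, read 10.65, 10.48 and 10.34 against 10.76, 10.90 and 10.78, a difference of 0.32 ± 0.10 (SE) without passing (adjusted p = 0.107). Its second probe set gave 0.37. It passed without labelled-control array 1 (adjusted p = 0.0456) and with the mean of its probe sets (adjusted p = 0.0496), within a range of 0.0456 to 0.343 over 14 alternatives. Ccne2 differed by -0.05 and Cdk2 by -0.08, both with groups that overlapped. Cdc25a, the phosphatase that releases Cdk2 from inhibition, differed by 0.14.

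The genes of G2 and mitosis lay close to 0, and none passed. Of the 11 measured, 6 were higher and 5 lower, with a median of 0.02. The sign of this median rested on single arrays: it was -0.01 without labelled-control array 1, -0.06 (5 higher) without array 2 and 0.09 (8 higher) without array 3. Leaving out labelled-mutant arrays 1 to 3 in turn gave 0.01, 0.04 and 0.0017. The 11 had differences between -0.20 and 0.14 and every interval within 1.32-fold. Top2a, the topoisomerase that untangles sister chromatids, read 13.12, 12.93 and 13.22 in the labelled-control and 13.14, 13.04 and 13.16 in the labelled-mutant arches, which lay inside the labelled-control range. Mki67, the standard marker of dividing cells, differed by -0.04, and its interval ran from -0.24 to 0.16. Cdk1, the mitotic kinase, and its cyclin Ccna2 differed by 0.03 and -0.02. Aurka and Aurkb, kinases of the spindle and of the chromosome passenger complex, differed by 0.13 and 0.10, Plk1, a further mitotic kinase, by 0.08, and the spindle checkpoint kinase Bub1 by 0.14. Cdc20, which activates the anaphase-promoting complex, differed by -0.05.

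Only Cdc25b and Ccnb2 of this set had groups that did not overlap. Cdc25b, the phosphatase that starts Cdk1 activity, read 8.38, 8.28 and 8.53 in the labelled-control and 8.25, 8.20 and 8.14 in the labelled-mutant arches. The difference of -0.20 ± 0.09 (SE) did not pass (adjusted p = 0.257). Ccnb2, a B-type cyclin, differed by -0.17.

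No E2F factor passed, and E2f3 had the largest difference of the 5. E2f3, an activator of S phase genes, read 10.21, 9.99 and 9.90 in the labelled-control and 10.35, 10.41 and 10.36 in the labelled-mutant arches. The groups did not overlap, and the difference was 0.34 ± 0.09 (SE) (adjusted p = 0.0816). Its second probe set gave 0.47 with an adjusted p of 0.0711 in the fit of all probe sets. E2f3 passed without labelled-control array 1 (adjusted p = 0.0229) and with the mean of its probe sets (adjusted p = 0.0434), within a range of 0.0229 to 0.267 over 14 alternatives. The other activators E2f1 and E2f2 differed by 0.12 and -0.07. Of the atypical repressors, E2f7 read 10.40, 10.11 and 10.29 against 10.42, 10.47 and 10.41, a narrow separation of 0.17 in the mean, and E2f8 differed by -0.06.

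Of the 3 pocket proteins, Rbl2 passed. Rbl2, also known as p130, which with E2F4 silences cell cycle genes in resting cells, read 6.20, 6.20 and 6.76 in the labelled-control and 5.81, 5.75 and 5.73 in the labelled-mutant arches. The groups did not overlap, and the labelled-mutant arrays lay 1.54-fold lower in the mean (limma, Benjamini-Hochberg adjusted p = 0.0449, standard error 0.15). These signals lie near the array median of 5.81, and the call held in 6 of 14 alternatives. It did not hold without labelled-control array 2 (adjusted p = 0.0674), labelled-mutant array 1 (0.0952), array 2 (0.151) or array 3 (0.160), within a range of 0.0214 to 0.164 over 14 alternatives. The call was also lost with a replicate block, with every probe set fitted, with floored signals and with probe sets averaged per gene. The second probe set of Rbl2, under the 25th percentile on at least 1 array, gave -0.19. Rbl1, or p107, which accumulates in cycling cells, read 9.93, 9.80 and 9.93 against 9.99, 9.90 and 10.03, with a difference of 0.09. Rb1, the retinoblastoma protein itself, differed by -0.12, and the groups of both overlapped.

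**Figure D3:**
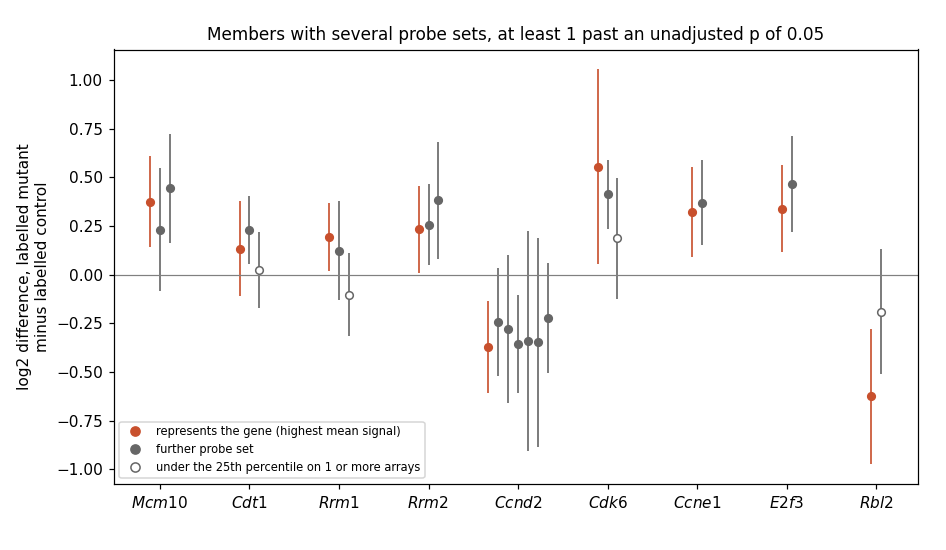
Difference in log2 signal (labelled mutant minus labelled control, with 95% interval) for every probe set of the 9 members that have several and at least 1 past an unadjusted p of 0.05. Red marks the probe set that represents the gene, and open points lie under the 25th percentile on 1 or more arrays. All 7 probe sets of Ccnd2 lie below 0, both of E2f3 and Ccne1 lie above it, and the second Cdk6 probe set has a much shorter interval than the first.

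Further probe sets gave a second reading of most members. The 42 members had 102 probe sets, and 32 members had more than 1. In 17 of these all probe sets had the same sign, and in 15 they differed in sign. At an unadjusted p of 0.05, 18 member probe sets passed, 15 higher and 3 lower, against 15.3% of all probe sets. All 3 probe sets of Rrm2 were higher, by 0.23, 0.26 and 0.38, and all 3 of Mcm10, by 0.38, 0.23 and 0.44. Those of Rrm1 differed in sign.

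The 3 labelled-control arrays differed from one another by role. On labelled-control array 3, 9 of the 11 genes of G2 and mitosis had the highest of the 3 control signals, with a median deviation of 0.13 from the group mean, while the E2F factors and the licensing genes had median deviations of -0.09 and -0.05. On labelled-control array 1 the pattern was opposite, with 0.13 for the E2F factors, 0.08 for licensing genes and -0.04 for G2 and mitosis. Labelled-control array 2 lay below the group mean in all 6 roles, and 22 of 42 members had their lowest control signal there. Over all genes these 3 arrays had median deviations of 0.02 on array 3, 0.0008 on array 1 and -0.02 on array 2. The labelled-mutant arrays stayed closer together, with median deviations between -0.08 and 0.06 for every role. The median difference of the members was 0.0087 without labelled-control array 2 and 0.09 without labelled-control array 3. The median SD within groups, pooled over both labels, was 0.11 for the members and 0.11 for all genes, from 0.04 for Mcm3 to 0.36 for Cdk6.

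**Figure D4:**
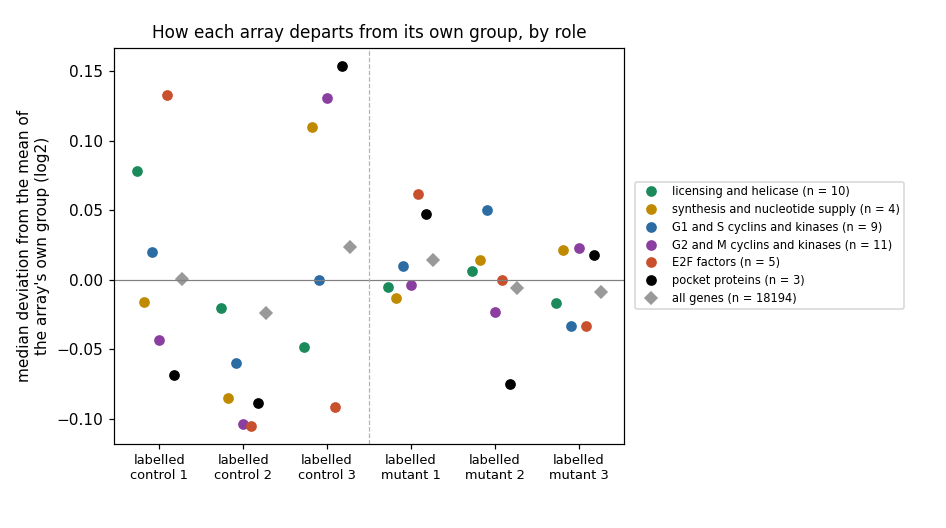
Median deviation of each array from the mean of its own group (log2), by role (colours) and for all 18194 genes (grey diamonds), with the 6 arrays along the horizontal axis. The labelled-control arrays spread from -0.10 to 0.15 across roles, while the labelled-mutant arrays stay between -0.08 and 0.06.

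The E2F-site members can be set beside the others. The 13 with the site had a median difference of 0.09, 11 of them higher and 2 lower, and the 21 measured members with a window but no site had a median of 0.02, 11 higher and 10 lower. The 15 with a CHR element had a median of -0.00, 7 higher and 8 lower, against 0.12 for the 19 without, 15 higher and 4 lower. These differences between subsets were not tested, and the sites were read from the reference sequence alone.

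Genes of the same machinery outside the 43 gave no call, and more of them read higher than the 55.3% of all genes. Of 50 further replication genes measured (origin recognition, polymerases, clamp loader, repair and chromatin assembly at the fork), none passed with limma, 10 were past an unadjusted p of 0.05, all higher, and 40 (80%) were higher, with a median difference of 0.09 (0.14 without labelled-control array 3). The 10 are 20% of the list, against 18.7% of all genes past that threshold in either direction. Of all 18194 genes, 1554 were past it and higher. Dut, which keeps uracil out of DNA, differed by 0.31 and Orc1, the large subunit of the origin recognition complex, by 0.32 (adjusted p = 0.0544 and 0.0657). The groups did not overlap for 18 of the 50, or 36%, all 18 higher. In either direction they did not overlap for 24.9% of all genes and 29% of those at or above the array median. Of all 18194 genes, 2365 had separate groups and were higher. Without labelled-control array 1, 1 of the 50 passed. Of 53 further genes of mitosis and chromosome segregation, none passed and 41 (77.4%) were higher, with a median of 0.06. An unadjusted p under 0.05 was found for 7, or 13.2%, all higher. Among all 18194 genes, 18.7% were past it in either direction, and 1554 were past it and higher. Without labelled-control array 1, 1 of the 53 passed. Without labelled-control array 2, 27 of these 53 were higher, with a median of 0.01. Cdca5, or sororin, which holds sister chromatids together, differed by 0.30 and the centrosome kinase Nek2 by 0.27 (adjusted p = 0.0732 and 0.100). All 50 and all 53 had intervals within 1.5-fold.

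The partners of E2F showed no call either. Of 12 such genes (Tfdp1, Tfdp2, the other E2F factors and the subunits of the DREAM and MuvB complexes), none passed with limma. An unadjusted p under 0.05 was found for 2, or 16.7%, both higher. Among all 18194 genes, 18.7% were past it in either direction, and 1554 were past it and higher. In sign, 10 of the 12 (83.3%, against 55.3% of all genes) were higher, with a median of 0.08. This median was 0.14 without labelled-control array 1, 0.03 (7 higher) without labelled-control array 2 and 0.04 without labelled-mutant array 1. E2f5, which works with the pocket proteins, differed by 0.22 and Mybl2, the activator in late S phase, by 0.27. Of the 7 CDK inhibitors, which act on the kinases above, 4 passed, all lower, against 5.53% of all genes past that threshold. The other 3 did not pass. In sign 6 of the 7 were lower and 1 higher, with a median difference of -0.83. Mean signals went from 6.99 to 3.78 for Cdkn2a, from 7.54 to 5.74 for Cdkn2b, from 9.91 to 7.09 for Cdkn2c and from 12.46 to 11.63 for Cdkn1c. Cdkn1b, or p27, read 10.66, 10.61 and 10.05 in the labelled-control and 9.89, 9.85 and 9.84 in the labelled-mutant arches, groups that did not overlap but a difference of -0.58 that did not pass (adjusted p = 0.0673).

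**Figure D5:**
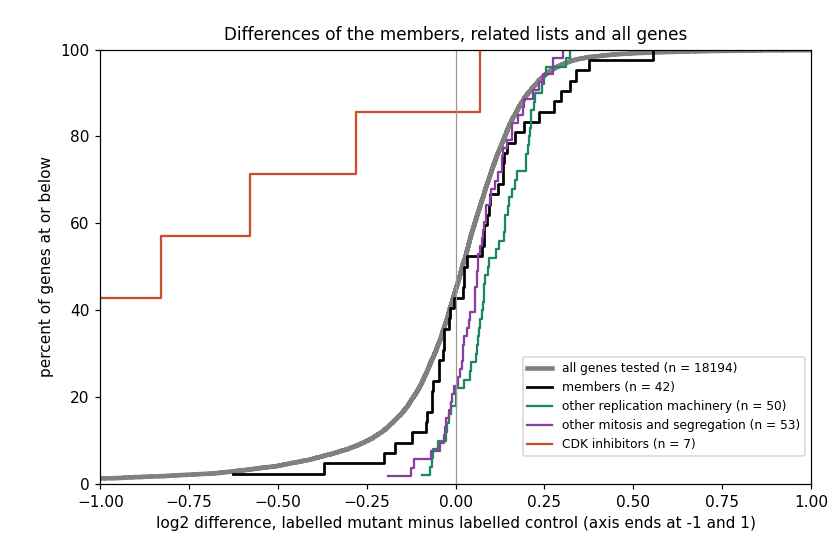
Cumulative share (percent, vertical axis) of genes at or below each log2 difference (labelled mutant minus labelled control, horizontal axis, which ends at -1 and 1) for the 42 members, 50 further replication genes, 53 further mitosis genes, 7 CDK inhibitors and all 18194 genes. Both machinery lists and all members but Mcm10, Cdk6, Ccnd2 and Rbl2 lie between -0.20 and 0.34, while 6 of the 7 CDK inhibitors lie below 0.

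Some markers of the arch's cell types passed limma's test at an adjusted p of 0.05, as did 5.53% of all genes. Of 5 mesenchyme markers 1 passed, and it was lower (Pdgfra). The mean log2 signal of that list ran from 10.13 to 10.22 in the labelled-control and from 10.01 to 10.14 in the labelled-mutant arches. Of 5 skeletal muscle markers 3 passed, all lower, with list means of 8.03 to 8.51 against 6.42 to 7.66. Of 5 neuronal markers 4 passed, all lower, with 7.56 to 7.68 against 6.06 to 6.47. Of 5 epithelial markers 1 passed, higher (9.24 to 9.73 against 9.59 to 9.64). Of 5 macrophage markers 1 passed, lower (6.79 to 7.30 against 6.49 to 6.80). The other skeletal muscle, neuronal and macrophage markers were also lower without passing, and the other mesenchyme and epithelial markers went both ways. None of 4 erythroid markers (10.57 to 11.04 against 10.43 to 10.65) and none of 5 endothelial markers (7.66 to 8.06 against 7.80 to 7.94) passed with limma. No marker lay under the 25th percentile of 4.33 on all arrays. The part of these cell types in the signals of the cell cycle genes was not tested.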

How the data were processed

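The deposited table holds 1 log2 value per probe set and array (45101 probe sets, 6 arrays), as made by the authors. Nothing states the scale: log2 was read from a range of 2.63 to 14.68, and quantiles were equal on every array. The software and its settings were not given in the sources used here. The array annotation gave 34958 probe sets a single symbol, and each of 18194 genes was represented by its probe set with the highest mean. Differences were fitted with limma 3.58.1 (R 4.3.3; lmFit, eBayes, two-sided, without covariates), Benjamini-Hochberg adjustment across the 18194 genes, a threshold of 0.05 and moderated 95% intervals. The steps were checked on simulated data. The number of arrays limits the precision.

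Members, role groups and related lists were chosen with earlier results of these data known. All members are named. Values on every array are given for those with an unadjusted p under 0.05, the member of each role with the highest signal or largest difference, and the narrowest and widest intervals. In each related list, genes past the threshold or otherwise the pair with the largest moderated t are named, and Cdkn1b was added after its values were seen. The promoters of Mcm7 and Mcm5 (E2F site) and of Top2a and Cdc20 (CHR element) were chosen as those with the highest signal, leaving Mcm7, which holds both, out of the second pair, and those of Cdc6 and E2f3 after their values were seen. Promoter letters are RefSeq's.

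Replicate numbers did not pair the arrays (correlations of deviations between same-numbered arrays -0.21, -0.12 and -0.07). The labels call the arrays biological replicates. Some genes of the related lists are not reported here.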

Additional observations from a re-analysis of the deposited data

How the results depend on the processing

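Each member was recomputed under 14 alternatives. The count of members past the adjusted threshold was 1 as reported. It was 0 with a replicate block (3.61% of all genes passed) and 0 with signals floored at the 20th percentile (1.81%). It was also 0 when every probe set was fitted, counting the representing probe sets (2.82% of all probe sets passed). It was 2 with probe sets averaged per gene (4.46% of all genes) and 3 with trend and robust settings (5.67%). When 1 array was left out it was 0 to 4, and 2.39% to 5.61% of all genes passed. The 2 members with probe sets averaged were Ccne1 and E2f3, so Rbl2 was not among them. The count past the unadjusted threshold was 7 to 12 and the median difference 0.0087 to 0.0858 when 1 array was left out. The count of intervals within 1.5-fold was 36 to 40 and within 2-fold 40 to 42 over all alternatives. Signs changed in 27 of 588 recomputed differences, in 15 members whose reported difference was at most 0.07 in size. No member past an unadjusted p of 0.05 changed sign. Alternatives for the role groups and the related lists were chosen after seeing the data. With 1 array left out, the replication list had a median of 0.0802 to 0.1392 and 0 to 1 genes past the threshold, and the mitosis list had 27 to 43 genes higher and 0 to 1 past it. The mean of probe sets and trend and robust settings gave 1 call in each of these lists, and leaving out dim genes gave 1 in the replication list. The same replicate numbers do not pair the arrays, and the replicate block left 0 calls among the members. The cause of these changes was not tested.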
